A study of Mus musculus with 34 samples.

Results

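Methylation of lysine 4 on histone H3 (H3K4) is written and removed by a small set of enzymes, and 10 genes that encode them were followed here in single mouse embryos. They comprised 7 writers (Kmt2a, Kmt2b, Kmt2c, Kmt2d, Kmt2e, Setd1a and Setd1b) and 3 erasers (Kdm1a, Kdm5a and Kdm5b), taken by symbol from the 49686 symbols of the zygote and late 2-cell tables, and all 10 were also in the blastocyst table. They were selected on their role and on a measured value, the level of Kmt2d in late 2-cell embryos, which was much lower in R442Q than in WT. Values for the 10 genes in that contrast are therefore a description, and no p-value is given for them.

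Mouse zygotes received an injection of mRNA for CHK1, a kinase of the DNA damage checkpoint, in its wild-type form (WT) or as the mutant R442Q. WT groups held 5 zygotes, 4 late 2-cell embryos and 7 blastocysts, R442Q groups held 6, 5 and 7, and each library was 1 embryo. All embryos were cultured in KSOM medium, and every group carried injected CHK1 mRNA, so no uninjected embryo was analysed here. Zygotes and late 2-cell embryos had no further treatment per the labels, whereas all 14 blastocysts had grown with a CHK1 inhibitor at 30 nM. The mRNA adds to the embryo's own Chek1, whose alleles the labels do not describe, and strain and parental age are not given in the sources used here. Nothing in the labels ties embryos to separate litters or injection sessions, so p-values measure the spread between single embryos, part of which may be technical.

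H3K4 methylation marks promoters and enhancers. The SET1 enzymes (Setd1a, Setd1b) and the MLL enzymes (Kmt2a to Kmt2d) work in complexes around a shared core of WDR5, RBBP5, ASH2L and DPY30. KMT2A and KMT2B act mainly at promoters and KMT2C and KMT2D mainly at enhancers, where they add the first methyl group. KMT2E carries a SET domain but has little or no methyltransferase activity of its own. KDM5A and KDM5B remove the methyl groups of the trimethylated form, and KDM1A removes mono- and dimethylation. In the mouse oocyte broad H3K4me3 domains form, which are removed around the 2-cell stage as the embryonic genome is activated, a step for which KDM5 enzymes are known to be needed.

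Total estimated counts ran from 7183632 to 11296522 per zygote and from 5727956 to 8916343 per late 2-cell embryo. Blastocysts have only FPKM (fragments normalised to transcript length and library depth) here, so their depth in counts is unknown. The stage labels were checked against marker genes. All 8 genes of an oocyte list had a mean FPKM of at least 1 in zygotes of both genotypes, all 8 of a 2-cell list did so in late 2-cell embryos, and all 6 of a trophectoderm list did so in blastocysts. This criterion did not separate the early stages: all 8 oocyte genes also met it in late 2-cell embryos of both genotypes, and 5 (WT) and 7 (R442Q) of the 8 2-cell genes met it in zygotes. The 2-cell list summed to 81.3 to 215.8 FPKM over all zygotes, to 187.9 to 1704 in WT late 2-cell embryos, which overlapped with zygotes, and to 859.4 to 2962 in R442Q late 2-cell embryos. The oocyte list summed to 5712 to 7800 FPKM in WT and 3775 to 5599 in R442Q zygotes, without overlap, and to 1239 to 3166 and 1706 to 7041 in late 2-cell embryos; its part in the results was not tested. A cumulus cell list summed to 1.05 to 3.39 FPKM in zygotes, to 43.0 to 73.4 in WT and 17.5 to 70.5 in R442Q late 2-cell embryos, and to 0 to 71.5 in blastocysts, and Fshr was listed at 0 in every late 2-cell embryo and blastocyst. Only 2 of its 8 genes had a mean FPKM of at least 1 in late 2-cell embryos of either genotype, and 1 of 8 in blastocysts. Chek1, the injected gene, stood at 4123 to 9079 FPKM in WT and 5290 to 6868 in R442Q zygotes, 344 to 653 against 253 to 905 in late 2-cell embryos and 7.05 to 38.3 against 13.3 to 23.6 in blastocysts. Counts per gene tell apart neither injected from endogenous Chek1 nor the WT from the R442Q sequence.

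Kmt2d (ENSMUSG00000048154.17) lies on the minus strand of GRCm38 at chr15:98831669-98871204 and Kmt2c (ENSMUSG00000038056.15) on the minus strand at chr5:25271798-25498783. The 250 bases upstream of each RefSeq start (GRCm38.p6) are shown for this pair because both were lower, without overlap, in R442Q late 2-cell embryos. Capitals mark the GC box GGGCGG, read on either strand (CCGCCC on the other); overlapping matches run together. The Kmt2d stretch is chr15:98871206-98871455 and the Kmt2c stretch chr5:25498784-25499033, both on the minus strand.
Kmt2d: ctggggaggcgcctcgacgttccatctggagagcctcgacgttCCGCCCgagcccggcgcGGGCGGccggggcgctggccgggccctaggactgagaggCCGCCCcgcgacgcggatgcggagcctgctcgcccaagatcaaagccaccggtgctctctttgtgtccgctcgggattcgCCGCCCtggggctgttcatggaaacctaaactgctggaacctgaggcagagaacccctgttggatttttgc
Kmt2c: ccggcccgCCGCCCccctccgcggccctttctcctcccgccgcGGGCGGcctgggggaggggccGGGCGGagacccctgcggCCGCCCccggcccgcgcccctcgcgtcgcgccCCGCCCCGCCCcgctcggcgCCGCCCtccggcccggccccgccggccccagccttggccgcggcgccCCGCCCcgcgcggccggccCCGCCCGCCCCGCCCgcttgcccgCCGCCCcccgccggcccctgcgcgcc
The Kmt2d stretch held 4 GC boxes, 26 CpG dinucleotides and a GC content of 67.6%. The Kmt2c stretch held 12 GC boxes and 48 CpG dinucleotides at a GC content of 91.6%. At least 1 GC box occurred in 32.7% of all 32817 promoter windows of that length, whose median was 6 CpG dinucleotides. Of the members, 6 had an entry in the promoter table: Kmt2a held 4 GC boxes, Kdm5b held 1, and Setd1a and Kdm1a held 0. The CCAAT box, the E-box CACGTG, the CRE motif TGACGTCA and the letters TATAAA were searched on both strands too. They occur in 33.8%, 6.02%, 1.55% and 12.4% of windows, and the only match among the 6 genes was 1 CCAAT upstream of Kdm1a.

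Kmt2d, the enhancer writer also called MLL4, was abundant in zygotes of both genotypes and in WT late 2-cell embryos, and low in R442Q late 2-cell embryos. Counts scaled to the library total (CPM) in WT zygotes 1 to 5 were 315, 402, 398, 298 and 282. R442Q zygotes ran from 305 through a median of 357 to 471 CPM. The zygote groups overlapped, and the log2 difference of R442Q over WT was 0.24 ± 0.13 (SE), which edgeR's quasi-likelihood test did not call (adjusted p = 0.245).

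At the late 2-cell stage the WT embryos 1 to 4 held 351, 293, 435 and 382 CPM of Kmt2d. R442Q embryos 1 to 5 held 31.6, 71.2, 44.4, 58.1 and 42.7 CPM. The highest R442Q embryo was thus far below the lowest WT embryo, and WT embryo 3 was above every WT zygote, whereas the other 3 WT embryos lay within the WT zygote range. In estimated counts the WT embryos had 2020 to 2817 and the R442Q embryos 183 to 408, so every embryo had well over the floor of 3 counts. The group means were 365 ± 59.1 CPM (SD, n = 4) and 49.6 ± 15.3 CPM (SD, n = 5). The fitted log2 difference of -2.79 ± 0.30 (SE), or 6.93-fold lower, placed Kmt2d 113th from the lowest of 13883 tested genes. The deposited FPKM gave 14.6 to 21.2 in WT and 1.57 to 4.41 in R442Q embryos, and a difference of -2.31 on the log2(FPKM + 1) scale.

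**Figure D1:**
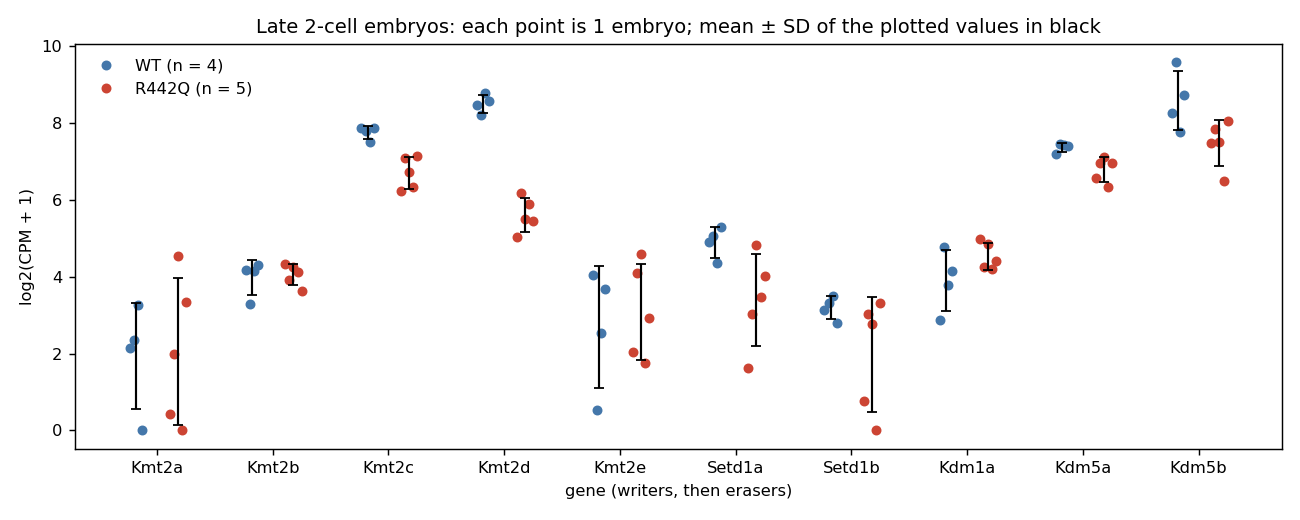
Log2(CPM + 1) of the 10 genes in late 2-cell embryos, with 1 point per embryo and the mean ± SD of the plotted values in black. Kmt2d separates WT (293 to 435 CPM) from R442Q (31.6 to 71.2 CPM); Kmt2c and Kdm5a also do not overlap.

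Kmt2d has one of the longest transcripts among the tested genes. Transcript length and base composition moved with the late 2-cell difference over all genes. Its longest GENCODE M21 transcript has 19823 bases at 58.4% GC, longer than 99.9% and richer in GC than 93.4% of tested genes with an annotated length. The median log2 difference was 0.07 over all those genes, -0.25 over the 1379 longest genes, -0.41 over the 1379 genes richest in GC and -0.79 over the 67 genes in both sets. Over the 19 genes at least as long as Kmt2d it was -0.68. In zygotes the sets built the same way had medians of 0.01, -0.02, 0.01, -0.11 and 0.21. With each library's trend on length and GC removed, the Kmt2d difference was -1.48 on the log2 scale. The part of length or base composition in the Kmt2d difference beyond that adjustment was not tested.

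**Figure D2:**
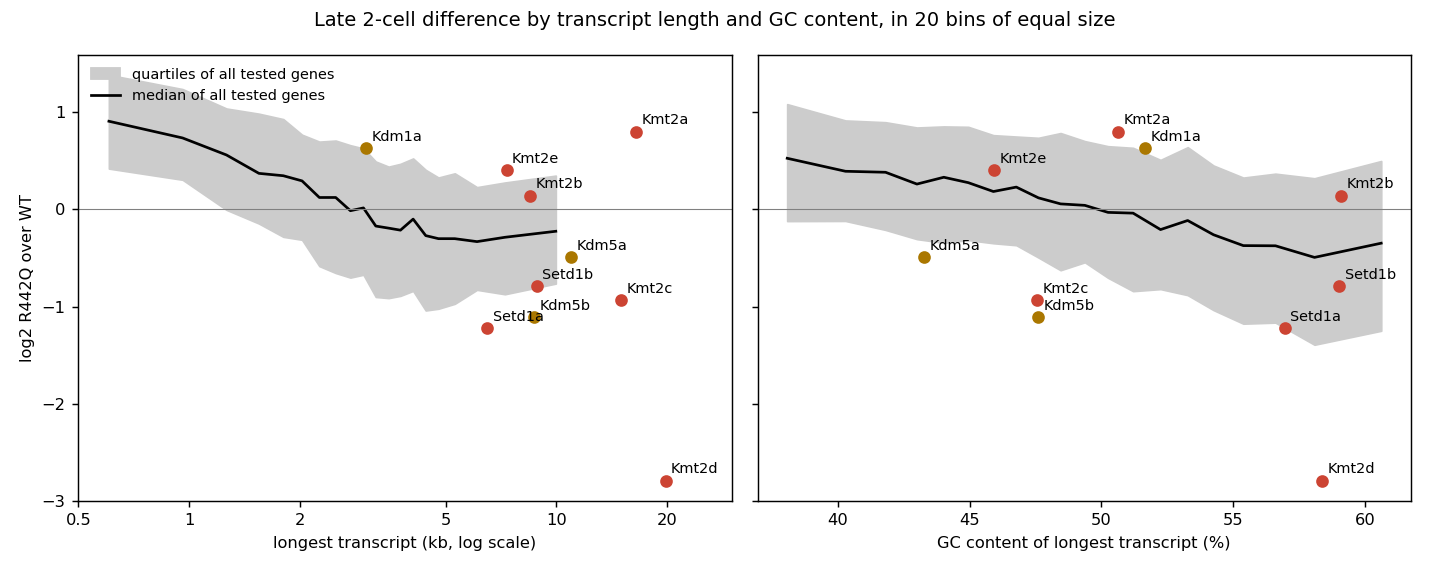
Log2 difference of R442Q over WT late 2-cell embryos against the length (log scale) and GC content of the longest transcript: the black line and grey band give the median and quartiles of all tested genes in 20 bins of equal size, and the points are the 10 genes (writers red, erasers brown). Kmt2d, at -2.79, lies below the quartile band on the GC axis and beyond the median length of the last length bin, where the line ends.

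In blastocysts Kmt2d was low in both genotypes. WT blastocysts ran from 1.02 through a median of 3.0 to 6.95 FPKM and R442Q blastocysts from 1.34 through 3.05 to 4.57 FPKM. The groups overlapped, with a difference of -0.16 ± 0.35 (SE, limma on log2(FPKM + 1), adjusted p = 0.958). In WT embryos every blastocyst was therefore below every late 2-cell embryo, whereas in R442Q embryos the late 2-cell values (1.57 to 4.41) already lay in the blastocyst range. Stages were deposited and normalised in separate tables, so effects of stage and table cannot be told apart, and FPKM levels are given across stages without a test.

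Kmt2c, the other enhancer writer (MLL3), was the member with the highest mean FPKM in WT zygotes, at 33.2 ± 3.43 (SD, n = 5). WT zygotes 1 to 5 had 236, 319, 339, 230 and 218 CPM, and R442Q zygotes ran from 191 through a median of 214 to 243 CPM. These groups overlapped and the difference of -0.18 ± 0.12 was not called by edgeR (adjusted p = 0.385). At the late 2-cell stage the WT embryos 1 to 4 had 233, 220.5, 180.0 and 231 CPM. The R442Q embryos 1 to 5 had 74.2, 134, 104, 79.4 and 140.2 CPM. All 5 R442Q embryos were below all 4 WT embryos, by -0.93 ± 0.29 on the log2 scale, a smaller difference than that of Kmt2d; with the length and GC trend removed it was -0.53. In FPKM, WT levels were 29.8 to 38.4 in zygotes, 19.6 to 28.4 in late 2-cell embryos and 6.31 to 9.82 in blastocysts, with no overlap between neighbouring stages. R442Q blastocysts ran from 5.94 to 15.6 FPKM and overlapped with WT (0.25 ± 0.29, limma adjusted p = 0.900).

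The balance of both enhancer writers was taken as the FPKM of Kmt2d over that of Kmt2c in the same embryo. In WT the ratio was 0.479 to 0.595 in zygotes, 0.574 to 1.08 in late 2-cell embryos and 0.162 to 0.708 in blastocysts. In R442Q it was 0.604 to 0.789, 0.111 to 0.391 and 0.151 to 0.451. R442Q embryos thus lay above all WT embryos as zygotes and below all of them at the late 2-cell stage, and the genotypes overlapped in blastocysts. In zygotes the same separation was present in counts (1.17 to 1.34 in WT and 1.40 to 1.94 in R442Q CPM ratios), although neither gene differed beyond the threshold. The ratio was chosen after the values were seen and was not tested.

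Of the promoter-type MLL writers, Kmt2b was detected in every zygote and late 2-cell embryo and Kmt2a was low. Kmt2b (ENSMUSG00000006307.16, GRCm38 chr7:30568858-30588726, minus strand), which sets H3K4 methylation in the growing oocyte, was at 22.5 ± 2.08 CPM in WT and 22.2 ± 3.82 CPM in R442Q zygotes (SD, n = 5 and 6). WT late 2-cell embryos 1 to 4 held 17.1, 8.86, 16.7 and 18.7 CPM and R442Q embryos 1 to 5 held 19.2, 14.1, 17.98, 16.4 and 11.4 CPM. The genotypes overlapped at both stages. The late 2-cell log2 difference was 0.14, and 1.45 with the length and GC trend removed. Kmt2a (ENSMUSG00000002028.13, GRCm38 chr9:44803355-44881296, minus strand), the founding MLL gene, was barely detected in zygotes. WT zygotes 3 and 5 had 0 counts, which allows up to 0.378 and 0.339 CPM (3 counts of the library total, counting error only), and no zygote exceeded 1.89 CPM, so Kmt2a was filtered out of the zygote test. It had 0 counts in 1 WT and 1 R442Q late 2-cell embryo and 22.1 CPM in another R442Q embryo. In WT blastocysts it was at 0.99 to 2.96 FPKM, above every WT late 2-cell embryo (0 to 0.64 FPKM). In R442Q these stages overlapped, with late 2-cell embryo 3 at 1.55 FPKM and blastocysts at 1.18 to 3.82 FPKM.

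The remaining writers were detected at low levels. Setd1a (ENSMUSG00000042308.14, GRCm38 chr7:127776670-127800122, plus strand), a catalytic subunit of the SET1 complex, stood at 28.7, 32.6, 19.3 and 37.9 CPM in WT and 2.07, 7.18, 27.4, 10.05 and 15.2 CPM in R442Q late 2-cell embryos. R442Q embryo 3 overlapped with WT. That embryo had 16211 genes at an FPKM of at least 1, where the others of its group had 11984 to 13475. Setd1a is uncertain, since 54.0% of its 50-base stretches also occur in the read-through gene Gm49388, and its log2 difference of -1.22 in counts was -0.21 in FPKM and -0.23 in counts with the length and GC trend removed. Setd1b (ENSMUSG00000038384.16, GRCm38 chr5:123142193-123168629, plus strand), the other SET1 catalytic subunit, had 7.76, 9.001, 10.3 and 5.95 CPM in WT and 0.6901, 7.16, 5.78, 0 and 8.97 CPM in R442Q late 2-cell embryos. The 0 was at a floor of 0.502 CPM, and the groups overlapped. The log2 difference of -0.79 turned to 0.25 with the length and GC trend removed. It was -2.26 with a replicate block and ran from -1.23 to -0.48 without any 1 embryo. Kmt2e (ENSMUSG00000029004.15, GRCm38 chr5:23434441-23504235, plus strand) ranged widely between embryos of one group, from 0.436 to 15.4 CPM in WT and from 2.34 to 23.1 CPM in R442Q late 2-cell embryos. It shares 12.7% of its stretches with Srpk2 on the opposite strand, and whether counting used strand is not given in the sources used here.

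Kdm5b (ENSMUSG00000042207.17, GRCm38 chr1:134560171-134635285, plus strand), an eraser of H3K4 trimethylation, rose from the zygote to the late 2-cell stage, with the largest fitted change of the 10 genes. WT zygotes 1 to 5 had 11.25, 23.0, 24.5, 10 and 14.2 CPM and WT late 2-cell embryos 1 to 4 had 306, 762, 217 and 426 CPM. Every late 2-cell embryo was above every zygote. The change of 4.63 ± 0.40 (SE) on the log2 scale, 24.8-fold, passed edgeR's quasi-likelihood test (adjusted p = 1.34e-09), and was 4.01 without WT late 2-cell embryo 2, the highest of its group. In FPKM the WT means were 2.07 ± 0.80 in zygotes, 79.3 ± 38.9 in late 2-cell embryos and 20.3 ± 9.40 in blastocysts (SD, n = 5, 4 and 7), with no overlap between any of the stages.

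Between genotypes Kdm5b overlapped at each stage. R442Q zygotes ran from 11.97 through a median of 26.1 to 29.3 CPM, and the difference of 0.67 ± 0.26 was not called by edgeR (unadjusted p = 0.0183, adjusted p = 0.0967). Without R442Q zygote 1, which had the lowest value of its group, the adjusted p of the edgeR test was 0.0428. R442Q late 2-cell embryos 1 to 5 held 177, 228, 182, 88.8 and 264 CPM, a difference of -1.11 ± 0.41 from WT that was -0.67 without WT embryo 2. R442Q blastocysts ran from 1.23 through 18.1 to 25.1 FPKM and WT blastocysts from 10.6 through 20.2 to 34.0 FPKM (-0.73 ± 0.52, limma adjusted p = 0.819). The 2 R442Q blastocysts below the WT range were embryos 6 and 7, at 3.65 and 1.23 FPKM, and without embryo 7 the difference was -0.33.

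Kdm5a (ENSMUSG00000030180.15, GRCm38 chr6:120364124-120444574, plus strand), the sister enzyme of Kdm5b, also rose with development. WT zygotes 1 to 5 had 5.67, 19.4, 14.5, 5.61 and 17.1 CPM, and WT late 2-cell embryos 1 to 4 had 146, 173, 172 and 169 CPM. The stages did not overlap, and the change was 3.65 ± 0.40 on the log2 scale, 12.5-fold (edgeR adjusted p = 4.25e-08). In FPKM the WT means were 18.6 ± 10.8 in zygotes, 64.1 ± 9.18 in late 2-cell embryos and 162 ± 44.9 in blastocysts (SD, n = 5, 4 and 7), again without overlap between neighbouring stages. Kdm5a was the member with the highest mean FPKM in blastocysts of both genotypes. Blastocysts have no counts here, so the transcript length behind these FPKM is unknown. R442Q blastocysts ran from 126 through a median of 201 to 723 FPKM and WT from 123 through 136 to 236 FPKM, with overlap (0.64 ± 0.33, limma adjusted p = 0.71). Without R442Q blastocyst 7, which had the highest value, the difference was 0.38; that embryo had 8189 genes at an FPKM of at least 1, where the others of its group had 10962 to 12182.

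The direction of the Kdm5a genotype difference at the late 2-cell stage depended on the unit. In counts, R442Q embryos 1 to 5 had 93.1, 123, 138, 79.2 and 122 CPM, all below the 4 WT embryos, for a log2 difference of -0.49 ± 0.27. In FPKM, R442Q embryos had 69.0, 105, 113, 66.3 and 76.9 and WT embryos 52.8, 62.4, 66.6 and 74.8, for a difference of 0.39 with overlap. The 2 units differ by the transcript length that the authors' estimate assigned to the gene in each embryo, which counts and FPKM together give back approximately. That implied length was 2261 to 2780 bases in WT and 1171 to 1593 bases in R442Q late 2-cell embryos, with no overlap, against 625 to 867 bases in zygotes of both genotypes. All these lengths are short of the longest annotated Kdm5a transcript of 10944 bases, and 9 transcripts are annotated, the shortest with 460 bases. Kdm5a also overlaps Ccdc77 on the opposite strand. The sum of FPKM over all genes also differed without overlap, at 712234 to 742246 in WT and 814376 to 976830 in R442Q late 2-cell embryos, and its part in the Kdm5a values was not tested. How far whole Kdm5a mRNA contributed to either unit was not tested.

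**Figure D3:**
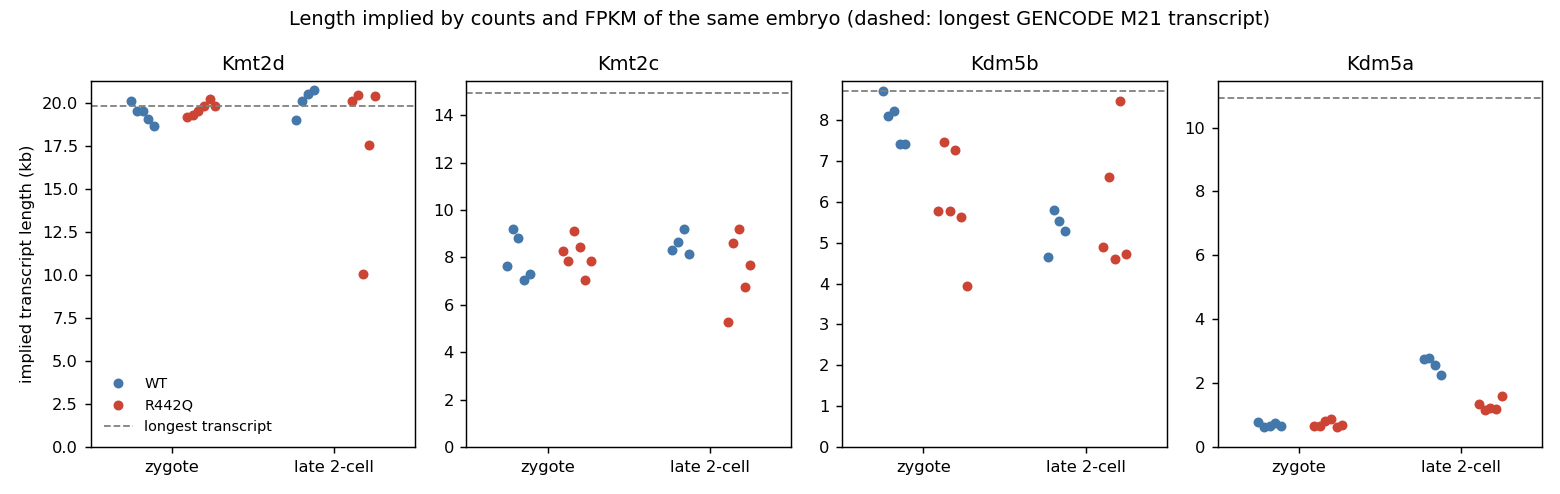
Transcript length in kilobases implied by the counts and FPKM of the same embryo for 4 genes, by stage and genotype, with the longest annotated transcript dashed. Kdm5a lies at 625 to 867 bases in zygotes and separates WT (2261 to 2780) from R442Q (1171 to 1593) in late 2-cell embryos, whereas Kmt2d stays near its longest transcript except in 1 R442Q embryo at 10060 bases.

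The same length for Kmt2d was 18684 to 20095 bases in WT zygotes and 18994 to 20739 bases in WT late 2-cell embryos, close to its longest transcript. Some embryos exceeded the 19823 bases of that transcript, so the implied length is approximate. In R442Q late 2-cell embryos it was 10060 bases in embryo 3 and 17538 to 20462 bases in the other 4. The Kmt2d difference therefore had 1 direction in both units, unlike that of Kdm5a.

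Kdm1a (ENSMUSG00000036940.15, GRCm38 chr4:136550540-136602723, minus strand; also LSD1), the eraser of mono- and dimethylation, was at 25.6 ± 7.25 CPM in WT and 21.8 ± 5.02 CPM in R442Q zygotes (SD, n = 5 and 6). WT late 2-cell embryos 1 to 4 had 6.31, 26.1, 12.7 and 16.8 CPM and R442Q embryos 1 to 5 had 30.4, 18.2, 27.7, 17.2 and 20.3 CPM. The groups overlapped, and in this contrast Kdm1a was the only eraser with a log2 difference above 0 in counts, at 0.63 ± 0.48. That value ran from 0.33 without WT embryo 1 to 1.003 without WT embryo 2. In blastocysts it was at 13.1 ± 4.85 FPKM in WT and 11.99 ± 4.62 in R442Q (SD, n = 7 each; -0.10 ± 0.34, limma adjusted p = 0.970).

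The ratio of Kdm5b to Kdm5a FPKM within an embryo described the balance of the KDM5 erasers. In WT it was 0.0753 to 0.183 in zygotes, 0.589 to 2.11 in late 2-cell embryos and 0.0667 to 0.223 in blastocysts. These ratios depend on the short length implied for Kdm5a: in counts the WT zygote ratio was 0.834 to 1.98. WT late 2-cell embryo 3, at 217 CPM of Kdm5b and 172 CPM of Kdm5a, lay within that range. The other WT late 2-cell embryos lay above it, so these stages overlapped in counts. In R442Q embryos the FPKM ratio was 0.0447 to 0.458, 0.158 to 0.729 and 0.0017 to 0.16, overlapping with WT at every stage.

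**Figure D4:**
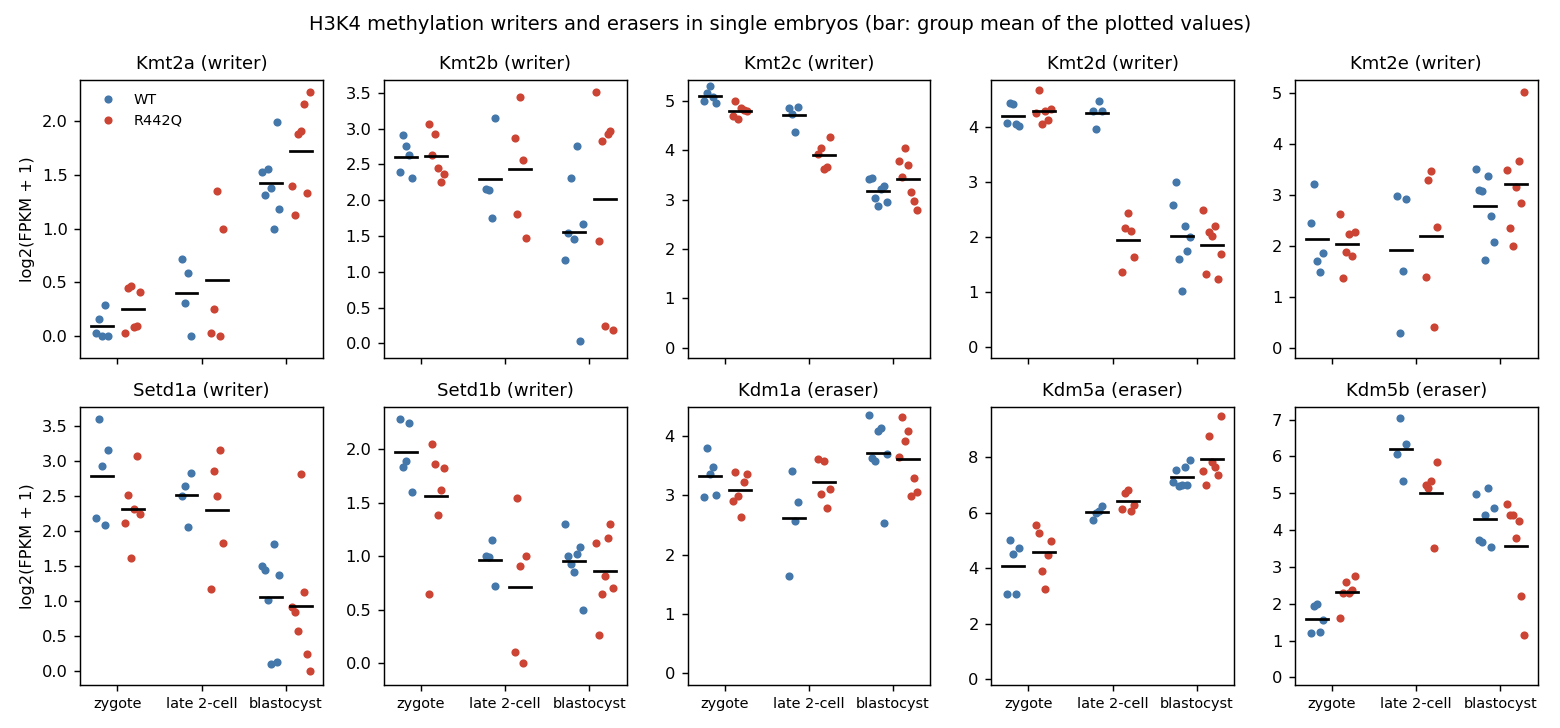
Log2(FPKM + 1) of each writer and eraser by stage and genotype, with 1 point per embryo and a bar at the group mean of the plotted values; each panel has its own axis and each stage was normalised in its own table. Kmt2d is lower than in zygotes in R442Q late 2-cell embryos (1.57 to 4.41 FPKM) but not in WT ones (14.6 to 21.2), and WT Kdm5b is highest in late 2-cell embryos.

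The order of the members by mean FPKM changed between stages. In WT zygotes it was Kmt2c, Kdm5a, Kmt2d and Kdm1a, with Kmt2a last; Kdm5a and Kmt2d did not differ beyond their spread (18.6 ± 10.8 and 17.5 ± 2.76, SD, n = 5). The place of Kdm5a rests on its short implied length, since in counts its mean was 12.5 CPM in WT zygotes. That was below Kmt2d (339), Kmt2c (268), Kdm1a (25.6), Setd1a (24.1), Kmt2b (22.5), Setd1b (17.5) and Kdm5b (16.6). Only Kmt2e (8.64) and Kmt2a (0.728) were lower. In WT late 2-cell embryos Kdm5b and Kdm5a led, overlapping with each other, followed by Kmt2c (25.3 ± 4.06) and Kmt2d (18.2 ± 2.71), which overlapped as well. In R442Q late 2-cell embryos Kmt2d was 8th of the 10 by FPKM, at 2.97 ± 1.14 (SD, n = 5), and overlapped with Setd1a, the next above it. By mean CPM only Kdm5b (188), Kdm5a (111) and Kmt2c (106) were above Kmt2d (49.6) in these embryos. Kdm5a was above Kdm5b in FPKM in all 5 R442Q late 2-cell embryos, whereas in CPM Kdm5b was above Kdm5a in all 5. In WT blastocysts Kdm5a, Kdm5b and Kdm1a were the first 3, so all erasers were above all writers by mean FPKM, although Kdm1a and Kmt2c (8.11 ± 1.399) overlapped. Without counts for blastocysts, the part of implied length in this order could not be read.

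Over all members the counts of calls were as follows, at a Benjamini-Hochberg adjusted p of 0.05 over all tested genes. In zygotes 0 of the 9 members tested passed with edgeR or with DESeq2, where edgeR called 13.2% of all tested genes. An unadjusted edgeR p under 0.05 was found for 1 of the 9, beside 3366 of all 12420 genes. Their log2 differences had a median of -0.03, against 0.01 over all tested genes. In late 2-cell embryos the 1 of 10 past the threshold was Kmt2d, whose low value there chose the genes, beside 4.18% of all genes. In counts 3 of 10 (Kmt2c, Kmt2d and Kdm5a) were lower without overlap, beside 8.77% of all genes. The choice of the members used this contrast, so nothing is read from either count. In blastocysts 0 of 10 passed with limma, beside 0.00885% of all genes, and 0 had an unadjusted p under 0.05, beside 836 of all 11297 genes. Between WT zygotes and WT late 2-cell embryos 2 of the 9 members other than Kmt2d rose (Kdm5a and Kdm5b) and 0 fell, beside 36.2% of genes called higher and 25.0% called lower.

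**Figure D5:**
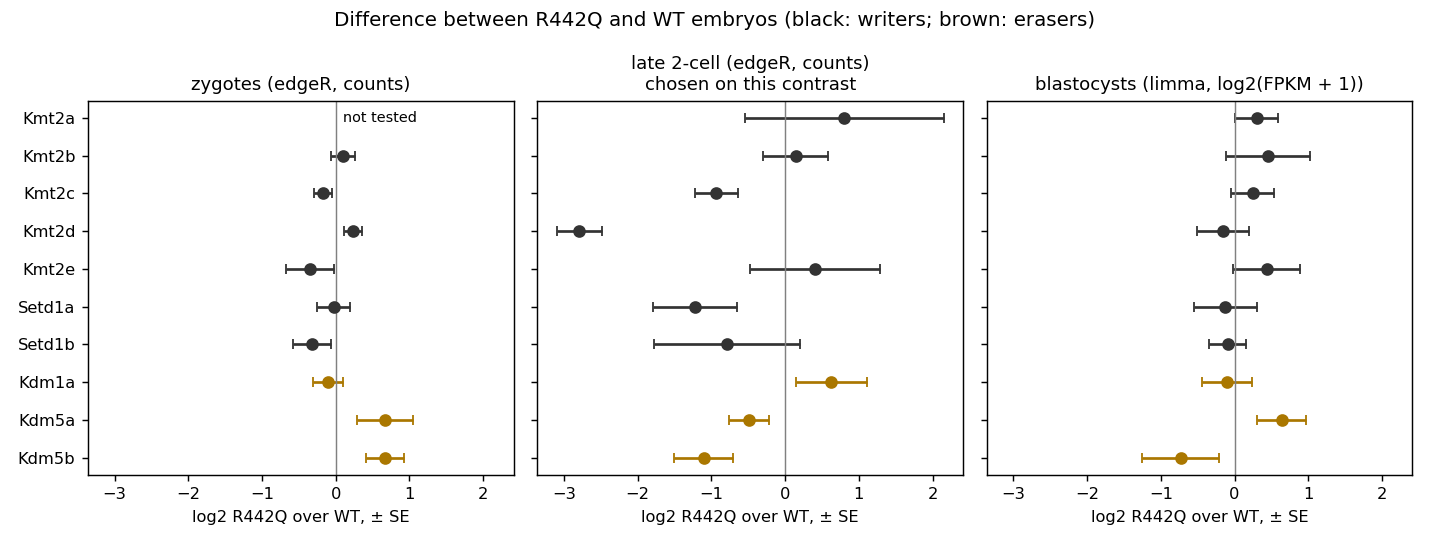
Log2 difference of R442Q over WT ± SE for each gene in zygotes, late 2-cell embryos and blastocysts; the middle panel is the contrast on which the genes were chosen. In the outer panels no gene passed the threshold, and Kmt2d lies at 0.24 in zygotes and -0.16 in blastocysts.

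The other 7 members tested between the WT stages did not pass edgeR's threshold in the fit of all 4 early groups. Kmt2b had a log2 change of -0.64 ± 0.30 and Setd1b of -1.16 ± 0.67, both lower at the late 2-cell stage without overlap (edgeR adjusted p = 0.0663 and 0.135). Kmt2c had -0.39 ± 0.21 and the eraser Kdm1a -0.77 ± 0.37 (edgeR adjusted p = 0.109 and 0.0753). Kmt2a had 2.35 ± 1.28, Setd1a 0.23 ± 0.44 and Kmt2e -0.20 ± 0.69 (edgeR adjusted p = 0.112, 0.671 and 0.817). Kmt2a was too low for the zygote filter and entered this fit through late 2-cell embryos, where it was higher, so nothing is read from its test. Kmt2a ran from 1.54 without WT late 2-cell embryo 3 to 3.07 without WT zygote 4, and Kmt2e from -0.79 without WT late 2-cell embryo 1 to 0.040 without embryo 2. Some of these calls depended on the fit or on single embryos. With the length and GC trend removed Kmt2b was at -1.36 and Setd1b at -1.89, and both were called (edgeR adjusted p = 0.00223 and 0.0136). In the fit of the WT groups alone Kmt2b, Setd1b and Kmt2c were called, at -0.74, -1.26 and -0.48 (edgeR adjusted p = 0.0343, 0.00357 and 0.0333), and Kmt2b was called with DESeq2 (-0.68, adjusted p = 0.0126). Kmt2b was also called without WT zygote 2 or without WT late 2-cell embryo 1, 3 or 4 (edgeR adjusted p = 0.0482, 0.0443, 0.0364 and 0.046). Without WT late 2-cell embryo 2, Kmt2c was at -0.58 and Kdm1a at -1.33, and both were called (edgeR adjusted p = 0.036 and 0.00605). With the length and GC trend removed Kmt2c was at -0.094 and was not called. The median change over all tested genes was 0.34 in the fit of all 4 early groups and -0.01 in that of the WT embryos alone, in which 5 members passed. The change of Kmt2d in WT was 0.03 ± 0.22, given as a description. It was -0.48 with the length and GC trend removed and ran from -0.20 to 0.097 without any 1 embryo.

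A list of 38 other genes of H3K4 methylation, comprising complex subunits, other writers and erasers, partners of KDM1A and readers of the mark, was read in the same fits. It was drawn up with earlier results of these data known, so its counts and p-values are a description in every comparison. In zygotes 4 of 36 tested passed with edgeR, 2 in each direction, beside 13.2% of all tested genes. Rbbp5, a core subunit of the MLL and SET1 complexes, was lower in R442Q: WT zygotes 1 to 5 had 81.6, 110.3, 86.5, 85.9 and 74.9 CPM, and R442Q zygotes had 37.5 to 49.4 CPM. These groups did not overlap (-0.86 ± 0.12, edgeR adjusted p = 0.000451), but the call was lost when both stages were fitted together (-0.84, edgeR adjusted p = 0.434). Ing1, a reader of H3K4 trimethylation, was also lower without overlap, from 66.3 to 98.3 CPM in WT to 28.9 to 43.7 CPM in R442Q (-1.07 ± 0.14, edgeR adjusted p = 0.000233). Dpy30, another core subunit, was higher by 0.30 ± 0.09 (edgeR adjusted p = 0.047), a call lost when any 1 of 8 of the 11 zygotes was left out. It was also lost without a filter on low counts, with the length and GC trend removed and in the joint fit (edgeR adjusted p = 0.213, 0.139 and 0.691), and with limma on FPKM, where the difference was 0.15 (adjusted p = 0.284). Kdm5d, a KDM5 eraser gene of the Y chromosome, was higher by 0.60 ± 0.12 (edgeR adjusted p = 0.00436) and lost its call in the joint fit of both stages (0.63, edgeR adjusted p = 0.195). Every zygote had at least 322 CPM of this Y-linked gene, and which transcripts these reads came from was not tested.

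The late 2-cell contrast is the one that chose the members, and the list too was drawn up with earlier results of these data known, so its counts and p-values there are a description and support nothing. In late 2-cell embryos 2 of 36 genes of the list passed, both lower in R442Q, beside 4.18% of all genes. A log2 difference below 0 was found in 25 of 36, beside 47.3% of all tested genes with an annotated length. The median was -0.44, against 0.07 over all tested genes. Men1, which encodes menin, a subunit of the KMT2A and KMT2B complexes, had 8.25, 21.2, 12.3 and 23.5 CPM in WT embryos 1 to 4. R442Q embryos 1 to 5 had 0.863, 1.22, 2.23, 3.35 and 1.57 CPM of Men1 (-3.07 ± 0.66, edgeR adjusted p = 0.0208). Taf3, a TFIID subunit that reads H3K4 trimethylation, had 191, 229, 196 and 185 CPM in WT and 49.2, 70.5, 96.4, 80.7 and 60.4 CPM in R442Q (-1.41 ± 0.27, edgeR adjusted p = 0.0134). Neither overlapped between genotypes. With the length and GC trend removed Men1 was at -2.17 and Taf3 at -1.09, and neither was called (edgeR adjusted p = 0.138 and 0.105). Without WT embryo 2 they were at -2.92 and -1.33 and were not called either (edgeR adjusted p = 0.0973 and 0.056). Men1 was also not called without WT embryo 4 (-2.83, edgeR adjusted p = 0.0982) or with limma on FPKM (-1.67, adjusted p = 0.062).

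In blastocysts 0 of 31 genes of the list passed with limma, beside 1 of all 11297 genes tested, and 0 had an unadjusted p under 0.05, beside 836 of all 11297. The 2 with the smallest unadjusted p were subunits of the SET1 complexes: Cxxc1, which binds unmethylated CpG (-1.08 ± 0.56, limma adjusted p = 0.717; -1.71 with a pseudocount of 0.1), and Hcfc1 (-0.73 ± 0.42, limma adjusted p = 0.768). Without R442Q blastocyst 7, Cxxc1 was at -0.69 and Hcfc1 at -0.46. Between the WT stages 22 of 37 passed with edgeR, 10 higher and 12 lower in late 2-cell embryos, beside 36.2% and 25.0% of all tested genes. Among the 4 core subunits Ash2l rose by 1.91 ± 0.34 (edgeR adjusted p = 3.83e-05), or 1.27 without WT late 2-cell embryo 2, whereas Dpy30 fell by 2.27 on the log2 scale (adjusted p = 3.73e-07), and Wdr5 and Rbbp5 were also lower. Of the 7 KDM1A partners 4 rose and 0 fell, beside those same shares of all genes, led by the deacetylase Hdac1 (4.69 ± 0.32, edgeR adjusted p = 4.02e-11), which is uncertain because 58.7% of its stretches occur in other genes. Kdm1b, the oocyte relative of Kdm1a, fell by 2.46 on the log2 scale (edgeR adjusted p = 3.28e-06), and Kdm6a, a demethylase of H3K27 in the KMT2C and KMT2D complexes, fell by 1.73 (adjusted p = 3.96e-06). Of the 10 readers 2 rose (Ing1, 1.397 ± 0.22, and Ing4, 1.56 ± 0.30; 46.7% of Ing4 stretches recur elsewhere) and 5 fell, Spin1 with the smallest p (-2.19 ± 0.20, edgeR adjusted p = 3.36e-09). With the length and GC trend removed Ing1 was at 0.52 and was not called (edgeR adjusted p = 0.053).

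The genes most like Kmt2d over the 20 zygotes and late 2-cell embryos were found by the root mean square difference of centred log2 CPM among 7805 genes. They were C2cd5 (0.34), Cep170b (0.45), Mn1 (0.45), Top3a (0.47) and Ranbp3 (0.51), against a median of 1.43 over all genes compared. C2cd5 stood at 454 ± 20.3 CPM in WT and 460 ± 53.1 CPM in R442Q zygotes (SD, n = 5 and 6), and at 364 ± 49.97 CPM in WT and 78.1 ± 21.003 CPM in R442Q late 2-cell embryos (SD, n = 4 and 5). Mn1, a transcriptional coregulator, stood at 121 ± 32.3 CPM in WT and 20.6 ± 13.7 CPM in R442Q late 2-cell embryos. The measure used the late 2-cell contrast, so the likeness is a description.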

How the data were processed

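Single embryos were sequenced after SMART-seq2 cDNA synthesis and Tn5 fragmentation, with Nextera libraries on a HiSeq X-10, per the labels' protocols. The deposited tables hold estimated counts per gene symbol for zygotes and late 2-cell embryos and for all 3 stages FPKM, which the authors scaled for transcript length and depth. RSEM and the build mm10 are named in the submitters' processing notes; versions and the use of strand are not given in the sources used here. GENCODE M21 (GRCm38), which matched 98.4% of symbols, gave positions, lengths and GC content.

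Counts were rounded and tested per stage in R 4.3.3 with edgeR 4.0.16 (filterByExpr, minimum count 10, TMM, quasi-likelihood test). The stage contrast used 1 fit of all 4 early groups. For blastocysts limma 3.58.1 with its trend option was run on log2(FPKM + 1) of genes at FPKM 1 or more in at least 7 of 14 embryos; these fold changes understate low genes. P-values were adjusted by Benjamini-Hochberg over all tested genes, with a threshold of 0.05. CPM printed is the count over the library total. The implied length is the count over FPKM and library total, for FPKM of at least 0.3. The fits were also run on simulated data, with the same spread for every gene in the count fits, and nothing is read from that here.

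Alternatives were RLE size factors, DESeq2 1.42.0, no filter, limma on FPKM, removal of each library's trend on length and GC (mgcv 1.9.3), other sets of samples in the fit, a replicate block, a pseudocount of 0.1, TMM scaling of FPKM and leaving out each embryo. No 2 libraries held identical values. The named genes are all members, up to 4 genes of the list past the threshold with the smallest p in each direction and comparison (with none, the 2 smallest unadjusted p), and the 5 genes most like Kmt2d with a mean log2 CPM of at least 3. Men1 and the other genes of the list, like the members, were chosen with earlier results of these data known. The floor of 3 counts covers counting error only, because PCR reads here carry no molecular identifiers.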

Additional observations from a re-analysis of the deposited data

Results flagged for a closer look

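Of 60 groups of values of the 10 genes (CPM for zygotes and late 2-cell embryos, FPKM for blastocysts, in groups of 4 to 7 embryos), 3 had an embryo far from the others by Dixon's criterion at the 95% level, which chance flags in about 1 of 20 groups. Kmt2e in R442Q blastocyst 7 was at 31.56 FPKM, where the next highest of its group was 11.66. That embryo was also the lowest of its group in Kdm5b, at 1.23 FPKM, and the highest in Kdm5a, at 723 FPKM. Setd1a in R442Q blastocyst 4 was at 6.06 FPKM, where the next was 1.18. Kdm5a in WT late 2-cell embryo 1 was the lowest of its group at 146 CPM, where the next was 169.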

How the results depend on the processing

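For the count of members called in zygotes, the 7 other settings gave 0, and leaving out 1 embryo gave 0 to 1, the 1 being Kdm5b without R442Q zygote 1. In late 2-cell embryos, where the choice of the genes fixed a call of Kmt2d and nothing is read from the count, the 1 became 3 with DESeq2 and in the joint fit of both stages, and 0 with the length and GC trend removed, and stayed at 1 without any 1 embryo. The Kmt2d difference there was -1.48 with that trend removed and -2.31 with limma on FPKM, and ran from -2.96 to -2.69 without any 1 embryo. In the WT stage comparison the count of 2 became 4 with DESeq2, 5 with the trend removed and 5 with the WT groups alone, and ran from 2 to 4 without any 1 embryo, with 4 without WT late 2-cell embryo 2. Kdm1a was among those called with DESeq2 (-0.80, adjusted p = 0.0396) and with the trend removed (-1.21, edgeR adjusted p = 0.0111). Setd1a changed sign in that comparison with the trend removed (-0.48). Leaving out 1 embryo also turned the sign of uncalled values: in zygotes Setd1a ran from -0.12 to 0.13 and Kdm1a from -0.19 to 0.030; in blastocysts Kmt2d ran from -0.33 to 0.0032, Setd1a from -0.28 to 0.033, Setd1b from -0.17 to 0.0061 and Kdm1a from -0.30 to 0.0066; and Kmt2e ran from -0.79 to 0.040 in the WT stage comparison. Late 2-cell values given as a description also turned sign when 1 embryo was left out. Kmt2a ran from -0.23 to 1.48, Kmt2b from -0.049 to 0.27 and Kmt2e from -0.054 to 0.82. The causes were not tested.

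Over all genes the zygote calls of 1643 became 270 in the joint fit, with 73.0% of calls higher in R442Q instead of 47.7%, and with limma on FPKM 25.0% of 1642 calls were higher. The late 2-cell calls of 580 became 1683 with DESeq2, 2507 in the joint fit, 889 without a filter and 131 with the trend removed, where 51.9% of calls were higher instead of 29.3%, and ran from 142 (without WT embryo 2) to 891 (without R442Q embryo 3) without any 1 embryo. The blastocyst call of 1 became 3 with TMM scaling, 0 without a filter and 0 to 30 without any 1 embryo, with 30 without WT blastocyst 7. The replicate numbers of the sample titles did not pair the embryos: deviations of same-numbered embryos correlated from -0.06 to 0.06 in zygotes, from -0.14 to 0.21 in late 2-cell embryos and from -0.17 to 0.20 in blastocysts. Pairing by the submitters' own numbers, which differ for some embryos, was not tested. With the replicate block the calls were 1217, 58 and 0 in the 3 stages and 9342 in place of 9920 in the stage comparison, and 0, 1, 0 and 2 members were called; Dpy30 was not called in zygotes (edgeR adjusted p = 0.148), nor Men1 and Taf3 in late 2-cell embryos (edgeR adjusted p = 0.106 and 0.0819). The planned limma fit on FPKM between stages was not run, since each stage was normalised in its own table. Depth limits Kmt2a, Kmt2e and Setd1b, which had few or 0 counts in some late 2-cell embryos.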
